A study of Mus musculus with 4 samples.

Results

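The nuclear receptors other than HNF4 were followed in the small intestine of 4 mice, 2 labelled HNF4 null and 2 controls. The list held 32 genes, chosen by symbol. Of these, 30 had at least 1 probe set annotated to them alone, 50 probe sets in all, among 12393 named genes and 22626 probe sets. Nr1h2 and Nr3c2 had no such probe set in the annotation used and were not analysed here. For the group, 1 probe set stood for each gene, the one with the highest mean over the 4 arrays.

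Nuclear receptors are transcription factors that bind DNA through zinc fingers and carry a pocket for small lipophilic ligands such as steroids, retinoids, fatty acids, bile acids and drugs. Many work as heterodimers with a retinoid X receptor and recognise repeats of the hexamer AGGTCA. In the gut they couple diet and bile to genes of absorption, drug metabolism and lipid handling, and HNF4 is itself a nuclear receptor of that epithelium.

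All mice were 1 month old, and each gave total RNA for 1 Affymetrix array. Each group held 1 male and 1 female. The 2 null animals had HNF4 loxP/- with villin-Cre, whose promoter is active in gut epithelium. The control female was loxP/+ and also had villin-Cre, whereas the control male was loxP/- without Cre. Sex and genotype thus coincide among the controls, and every animal had at least 1 loxP allele. The labels name neither the HNF4 paralogue nor any separation of epithelium from the other layers.

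The median deposited intensity was between 43.2 and 53.3 on the 4 arrays. The null male stood apart, with a correlation of at most 0.946 with any other array, where the highest was 0.963. The 4 Hnf4a probe sets differed by 0.08 to 0.32 and the 2 of Hnf4g by 0.12 and 0.16, null minus control on the log2 scale. Their standard errors were 0.21 to 0.27. By mean, neither transcript was lower in the null animals. The Hnf4a differences were 0.23 to 0.62 between the males but −0.24 to 0.10 between the females. Where these probes lie relative to the deletion is not given, and they do not check the labels. All 9 enterocyte markers measured were among the genes bright enough to test.

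Differences below are null minus control on the scale of log2(intensity + 16) after quantile normalization, with the standard error (SE) of the limma fit over all probe sets. That scale understates the change of dim probe sets. What a probe set is said to read is its deposited linear intensity. Of the 30 genes, 26 had a representative bright enough to test. Rarb, Esr1, Nr2f1 and Nr4a2 did not. As a gauge of background, 32 probe sets of 20 genes of other organs, such as photoreceptor, sperm and lens genes, were read on the same arrays. Their 90th percentile was 69.5 in the null male, 58.4 in the null female, 51.6 in the control male and 53.4 in the control female. Of the 30 receptor genes, 13 exceeded that value on all 4 arrays, 8 on some of them and 9 on none.

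No receptor passed the threshold. In limma 0 of 38 receptor probe sets had an adjusted p under 0.05, against 2 of 15838 probe sets tested (0.0126%), and the adjusted p of each was 1. An unadjusted p under 0.05 was found for 2 receptor probe sets, those of Nr1i3 and Thrb, beside 3.03% of all probe sets. By gene, that is 2 of 26 beside 3.21% of all 9546 genes tested, with 1 lower (background 1.75%) and 1 higher (background 1.46%). Fits without 1 animal leave 1 animal in a group, so no counts are given for them. The median difference over the 26 genes was −0.011, beside 0.0013 over all genes tested, with 15 lower and 11 higher. Taken as null male minus control male, and likewise for the females, the median was 0.026 for males and −0.062 for females. It was −0.142 without the null male. In 6 of the 26 genes both null animals lay below both controls (background 15.2%), and in 2 they lay above (background 14.4%). Nr1i3, Ppara and Pparg were lower by at least 0.5 without overlap (background 2.73%), and Thrb was higher by that much (background 2.61%). Thrb was bright enough to test only through its null readings.

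**Figure D1:**
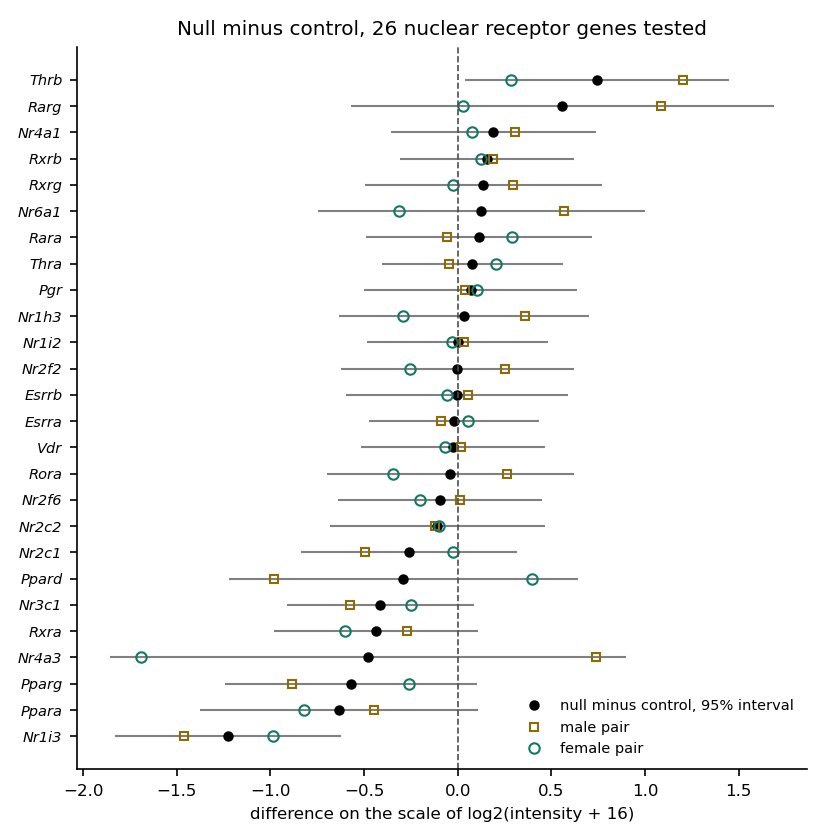
Null minus control difference of the 26 nuclear receptor genes tested, on the scale of log2(intensity + 16). Black points are the difference over the 4 arrays with its 95% interval from limma, and open squares and circles are the differences within the male pair and the female pair. The intervals of Nr1i3 (−1.83 to −0.62) and Thrb (0.04 to 1.45) leave out 0, and those of the others include it.

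Nr1i3 encodes the constitutive androstane receptor CAR, a sensor of drugs and other foreign compounds. It read 35.4 in the null male and 43.6 in the null female, against 139 in the control male and 97.1 in the control female. Both null animals were low and both controls high, with no overlap. The difference was −1.22 (SE 0.25, 95% interval −1.83 to −0.62), with an unadjusted p of 0.00215 in limma, the rank 16 among 9546 genes, and an adjusted p of 1. It was −1.46 for males and −0.99 for females, and it stayed between −1.46 and −0.98 when any 1 animal was left out. With sex as a block the adjusted p in limma was 0.186. Both null readings lay under the background gauge of their arrays, so a level above background is not shown there. The size depended on the pseudocount, at −1.49 with 1 and −0.79 with 64.

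**Figure D2:**
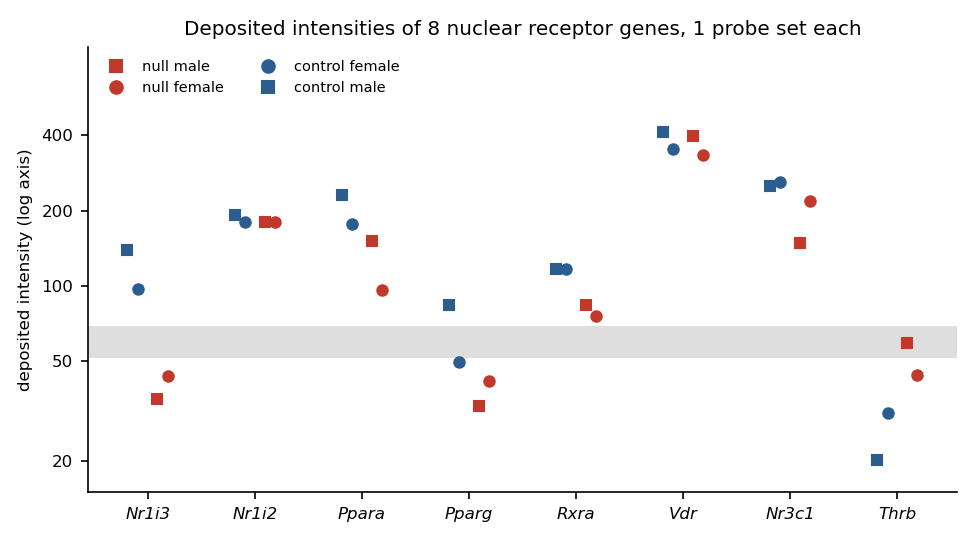
Deposited intensities (log axis) of 8 nuclear receptor genes, 1 probe set each, in the 4 animals. Squares are males and circles females, red is null and blue is control, and the grey band spans the 90th percentile of the probe sets of other organs on the 4 arrays, from 51.6 to 69.5. The null animals lie below the controls for Nr1i3, Ppara, Pparg, Rxra and Nr3c1 and above them for Thrb, while Vdr overlaps. For Nr1i2 the null animals lie only just below, at 180.3 in the null female against 180.6 in the control female, and overlap after normalization.

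The sequence before the start of Nr1i3 is shown because this gene had the smallest p among the receptors. Those of Ppara, the lower receptor with the next smallest p, and of Thrb, the receptor that was higher, are shown for comparison. Each line gives 250 bases that end just before the RefSeq start on the plus strand of GRCm38.p6: chr1:171213720-171213969 for Nr1i3, chr15:85735526-85735775 for Ppara, and chr14:17660710-17660959 and chr14:17981394-17981643 for the 2 starts of Thrb. Capitals mark matches on either strand to AGGTCA, to GGNCAAAG, a core of the HNF4 binding consensus, or to CAAAGTCCA, an HNF4 element.
Nr1i3: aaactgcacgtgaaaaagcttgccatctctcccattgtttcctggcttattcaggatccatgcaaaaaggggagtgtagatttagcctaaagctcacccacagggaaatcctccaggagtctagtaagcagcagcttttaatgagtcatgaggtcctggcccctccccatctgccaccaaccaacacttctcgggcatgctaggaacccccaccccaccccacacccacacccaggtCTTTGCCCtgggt
Ppara: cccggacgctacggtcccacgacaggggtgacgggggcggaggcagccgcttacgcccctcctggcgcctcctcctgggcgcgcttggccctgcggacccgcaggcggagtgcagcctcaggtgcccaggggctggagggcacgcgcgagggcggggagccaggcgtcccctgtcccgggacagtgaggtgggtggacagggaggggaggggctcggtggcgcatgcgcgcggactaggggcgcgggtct
Thrb, start 1: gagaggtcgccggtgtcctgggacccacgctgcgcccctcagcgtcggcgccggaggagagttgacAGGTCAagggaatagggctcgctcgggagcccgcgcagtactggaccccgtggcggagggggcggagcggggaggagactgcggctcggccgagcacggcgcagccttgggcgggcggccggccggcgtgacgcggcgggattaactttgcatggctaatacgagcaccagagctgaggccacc
Thrb, start 2: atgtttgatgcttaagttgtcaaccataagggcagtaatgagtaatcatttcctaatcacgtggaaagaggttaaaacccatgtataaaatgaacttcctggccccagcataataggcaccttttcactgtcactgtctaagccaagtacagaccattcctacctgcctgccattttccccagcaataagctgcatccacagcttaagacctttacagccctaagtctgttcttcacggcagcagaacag
The Nr1i3 window held 1 match, to GGNCAAAG on the minus strand, from 13 to 6 bases before the start. The first Thrb window held 1 match, to AGGTCA, from 184 to 179 bases before the start, and the other windows printed held none. RefSeq windows were found for 28 of the 30 genes, 43 in all. GGNCAAAG, which was chosen after the Nr1i3 window had been seen, occurred in 2 of them (4.65%), of Nr1i3 and Nr4a1, beside 4.89% of all 32851 windows of that length. AGGTCA occurred in 7 (16.3%), of 6 genes, beside 14.0% of all windows, and CAAAGTCCA in 0, beside 0.384%. These are matches of letters, and the shares for the receptors were near those of all windows. The arrays do not measure binding.

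Nr1i2 encodes the pregnane X receptor PXR, the other main drug sensor of the gut. Its brighter probe set read 180.1 and 180.3 in the null animals, against 191.3 in the control male and 180.6 in the control female. After normalization the groups overlapped, with a difference of 0.00016 (SE 0.20, 95% interval −0.48 to 0.48). The other probe set read 74.2 and 78.5 in the null animals and 106 and 105 in the control male and the control female, without overlap. Its difference was −0.36 (SE 0.21, unadjusted p = 0.14 in limma), −0.30 for males and −0.42 for females. The 2 probe sets of Nr1i2 thus disagreed in size, and which transcripts each detects is not given in the sources used here.

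Of the genes that PXR and CAR are known to induce, 17 were tested. None passed after adjustment over all probe sets. At an unadjusted p under 0.05 in limma, 2 were lower (background 1.75%) and 1 higher (background 1.46%). In all, 15 were lower and 2 higher, and 11 were lower in both sex pairs (background 24.2%). The median was −0.40, −0.44 for males and −0.31 for females, and between −0.842 and −0.0242 when 1 animal was left out. It was closest to 0 without the control male (−0.0242) and without the null female (−0.0591). The aldehyde dehydrogenase genes Aldh1a7, at −0.89 (SE 0.20), and Aldh1a1, at −0.72 (SE 0.17), were lower in both pairs. Cyp3a13, a cytochrome P450 of the drug-metabolizing 3A subfamily, was higher in both, at 0.47 (SE 0.15). With sex as a block Aldh1a1 passed in limma (adjusted p = 0.0429), beside 0.183% of all probe sets in that fit.

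The peroxisome proliferator-activated receptors sense fatty acids. Ppara, which drives fatty acid oxidation, read 150.9 in the null male and 96.6 in the null female, against 231 in the control male and 177 in the control female. The null animals lay below the controls without overlap, and all 4 readings were above the background gauge. The difference was −0.63 (SE 0.31, 95% interval −1.37 to 0.11, unadjusted p = 0.0829 in limma), −0.45 for males and −0.82 for females. With sex as a block the SE of Ppara was 0.22, the unadjusted p 0.0159 and the adjusted p 0.73 in limma. The difference was −0.25 without the null female and −1.01 without the null male. Pparg, known for its role in adipocytes and colon epithelium, read 33.3 and 41.8 in the null animals and 84.2 and 49.9 in the control male and the control female. Only the male control was above the gauge. The difference of Pparg was −0.57 (SE 0.28, unadjusted p = 0.084 in limma), −0.88 for males and −0.26 for females. It was −0.26 without the control male and −0.88 without the control female. Ppard, the member found in most tissues, read 15.5 in the null male and 65.5 in the null female, on either side of the controls at 54.0 and 43.1, and its difference of −0.29 had an SE of 0.39.

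Of 16 PPAR target genes tested, 12 were lower and 4 higher, 8 of them lower in both pairs (background 24.2%). None passed after adjustment, and 4 were lower at an unadjusted p under 0.05 in limma (background 1.75%). Their median was −0.17, −0.15 for males and −0.27 for females, and −0.0755 without the null female and −0.0936 without the control female. Acaa1b, a peroxisomal thiolase, was at −1.34 (SE 0.22), from 134 in the null male and 219 in the null female, and 492 in the control male and 453 in the control female. The groups were well apart. The carnitine carrier Slc25a20 was at −0.56 (SE 0.19) and Ehhadh, the bifunctional enzyme of peroxisomal oxidation, at −0.55 (SE 0.20). With sex as a block Acaa1b passed in limma (adjusted p = 0.0372), beside 0.183% of all probe sets in that fit.

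Retinoid X receptors are the shared partners of CAR, PXR, the PPARs, LXR and the vitamin D receptor. Rxra read 84.1 and 75.6 in the null animals, against 117.4 in the control male and 117.1 in the control female. The groups did not overlap, and all readings were above the gauge. The difference was −0.44 (SE 0.23, 95% interval −0.98 to 0.11, unadjusted p = 0.1 in limma), −0.27 for males and −0.60 for females. It was −0.263 without the null female. The other Rxra probe set was also lower in both pairs, at −0.27 (SE 0.23). Rxrb read 183 and 198 in the null animals and 172 and 177 in the control male and the control female, a difference of 0.16 (SE 0.19) without overlap. Rxrg, read at 42.0 to 69.1, overlapped, at 0.14 (SE 0.26).

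The retinoic acid receptors overlapped between the groups. Rara differed by 0.12 (SE 0.25). Rarg read 192 in the null male on its brighter probe set, against 69.3 in the null female, 90.8 in the control male and 63.99 in the control female. Its difference of 0.56 (SE 0.47) rested on the null male, without which it was −0.185, and its other probe set gave 0.10. Rarb was too dim to test, at 9.93 to 23.9. Of the RAR targets, 2 were tested and none passed, the transglutaminase gene Tgm2 at 0.21 and the reductase gene Dhrs3 at −0.16.

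Vdr, the vitamin D receptor that governs calcium uptake in the duodenum, read 398 in the null male, 334 in the null female, 412 in the control male and 353 in the control female. Males were higher than females in both groups and the groups overlapped. The difference was −0.024 (SE 0.21, 95% interval −0.51 to 0.47), and −0.063 (SE 0.22) on the other probe set. All 3 of its targets tested were higher in both pairs (background 24%), and none passed. Its target Cyp24a1 was too dim to test, at 3.45 to 16.3, and was lower in both pairs, at −0.29. S100g, the intestinal calcium-binding protein calbindin-D9k, was at 1.36 (SE 0.42), with 60.0 in the null male and 167 in the null female, against 19.96 in the control male and 46.9 in the control female. The groups did not overlap, and the females were the higher within each. Only the null female was above the background gauge, so the size of the S100g difference rests on readings not shown to lie above background. It was 0.83 with a pseudocount of 64, and 0.83 without the null female. The median of the 3 targets was 0.45, and 1.16 without the null male and 1.10 without the control female. The calcium channel gene Trpv6 was at 0.33 (SE 0.22), and the claudin gene Cldn2 at 0.45 (SE 0.56).

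Among steroid receptors, Nr3c1 encodes the glucocorticoid receptor, which acts in epithelium and immune cells alike. Its brightest probe set read 149 in the null male and 219 in the null female, against 250.4 in the control male and 259 in the control female. The groups did not overlap and all readings were above the gauge. The difference was −0.41 (SE 0.21, 95% interval −0.91 to 0.09, unadjusted p = 0.0902 in limma), −0.58 for males and −0.25 for females, and −0.244 without the null male. The other 2 probe sets gave −0.41 (SE 0.34) and −0.33 (SE 0.20). The former overlapped between the groups, at −1.02 for males and 0.19 for females, and the latter was lower in both pairs. Esr1, the estrogen receptor, was too dim to test, at 18.5 to 24.0, and the progesterone receptor gene Pgr, at 45.9 to 57.5, overlapped with a difference of 0.07 (SE 0.24). Of 12 glucocorticoid and mineralocorticoid targets tested, 10 were lower and 2 higher, with 7 lower in both pairs (background 24.2%). None passed, and 1 was lower at an unadjusted p under 0.05 in limma (background 1.75%). Their median was −0.17, and 0.029 without the null female. The metallothionein gene Mt2 was at −0.86 (SE 0.27), and at −0.416 without the null male and −1.31 without the null female. Nfkbia, an inhibitor of NF-kappaB, was at 0.53 (SE 0.24) on its brightest probe set and between −0.04 and 0.53 over its 4. The brightest gave 0.169 without the control male and 0.907 without the control female.

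The estrogen-related receptors act without estrogen, and Esrra is known for its control of mitochondrial genes. Esrra read 235 and 256 in the null animals and 269 and 243 in the control male and the control female. The groups overlapped, with a difference of −0.02 (SE 0.19). Esrrb, at 28.0 to 31.0 and below the gauge on every array, differed by −0.0021. Of 7 ERR targets tested 6 were lower, 5 of them in both pairs (background 24.2%), and none passed. Their median was −0.066, and −0.118 without the null female. The medium-chain acyl-CoA dehydrogenase gene Acadm was at −0.29 (SE 0.16), and at −0.185 without the control male. Idh3a, of the citric acid cycle, was at −0.31 (SE 0.18) on its brightest probe set, and at −0.16 and −0.11 on the others. The brightest gave −0.119 without the null female and −0.503 without the null male.

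Thyroid hormone receptors guide maturation of the gut epithelium. Thrb had the largest positive difference among the 26 representative probe sets. It read 59.1 in the null male and 44.2 in the null female, against 20.2 in the control male and 31.0 in the control female, without overlap. The difference was 0.74 (SE 0.30, 95% interval 0.04 to 1.45), with an unadjusted p of 0.0413 and an adjusted p of 1 in limma. It was 1.20 for males and 0.29 for females, and 0.468 without the null male. All 4 readings lay under the background gauge, so none is shown to lie above background. Brightness was judged on the mean over the 4 arrays. Thrb was bright enough to test only through the null animals, with log2-scale means of 6.09 in the nulls and 5.35 in the controls. Its difference and p are thus not independent of that filter. Genes of other organs were higher too, 18 of 20 of them, though not all were bright enough to test. Their summed intensity was 886 and 817 in the nulls and 578 and 650 (649.7 before rounding) in the controls. Of the 13 tested, 11 were higher, beside 4797 of all 9546 genes tested, and 5 were higher in both pairs (background 24%). The median of the 13 was 0.50 for males and −0.07 for females. The part of these genes in the Thrb difference was not tested. Thra, the gut's main thyroid receptor gene, overlapped at 0.08 (SE 0.20). Of 5 targets tested 4 were lower, 1 of them at an unadjusted p under 0.05 in limma (background 1.75%), and none passed. Their median was −0.078, and 0.21 without the null female, with Me1, the malic enzyme, at −0.63 (SE 0.21) and the mitochondrial glycerol phosphate dehydrogenase gene Gpd2 at 0.29 (SE 0.16).

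Nr1h3 encodes LXR alpha, an oxysterol sensor. It read 216 in the null male and 143 in the null female, on either side of the controls at 179 and 173, with a difference of 0.035 (SE 0.28). Its 12 target genes had a median of −0.059, with 7 lower and 5 higher, and 0.041 without the null male. None passed after adjustment, and 1 was lower at an unadjusted p under 0.05 in limma (background 1.75%). Mylip, which degrades the LDL receptor, was at −0.66 (SE 0.26), and at −0.414 without the null male. Apoe was at 0.40 (SE 0.18), and at 0.252 without the control female. The cholesterol exporter gene Abca1 gave −0.51 on its brightest probe set and 0.21 and 0.38 on the others. Rora, at 22.2 to 35.8, differed by −0.04 (SE 0.28), and its other 2 probe sets were too dim to test.

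The orphan receptors of the Nr2 and Nr6 groups have no settled natural ligand. Nr2f2 (COUP-TFII) differed by −0.002, Nr2f6 by −0.09, Nr2c2 by −0.11 and Nr2c1 by −0.26, with standard errors of 0.23 to 0.26. The Nr2c2 probe sets ran from −0.43 to 0.18. Nr2f1 was too dim to test, at 2.14 to 18.8. Nr6a1, the germ cell nuclear factor, gave 0.13 (SE 0.37) on its brighter probe set and 1.04 (SE 0.49) on the other, where the null male read 84.4 and the other 3 animals 13.0 to 25.2. Its male pair difference there was 1.94 and its female pair difference 0.13, so a single array carried that value. The same array carried this probe set past the filter on dim probe sets.

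**Figure D3:**
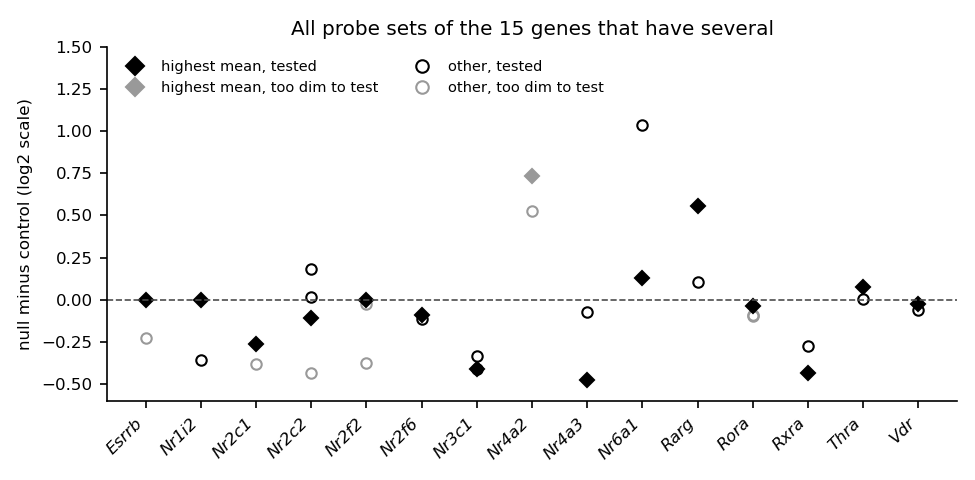
Null minus control difference (log2 scale) of every probe set of the 15 nuclear receptor genes with more than 1. Diamonds are the probe set with the highest mean, circles the others, and grey marks probe sets too dim to test. In 13 of the 15 genes all probe sets had the same sign, and Nr1i2 and Nr2c2 were the exceptions.

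The Nr4a genes are immediate early genes that respond to stimuli within a short time. Nr4a1 (Nur77) read 190 (189.8 before rounding) and 161 in the null animals and 164 and 148 in the control male and the control female, with an overlap and a difference of 0.19 (SE 0.23). Nr4a3 (NOR1) read 126.8 in the null male, 29.5 in the null female, 77.9 in the control male and 123.9 in the control female. The null female was low and the groups overlapped, with −0.48 (SE 0.58) overall. The difference was 0.74 for the males and −1.69 for the females, and 1 of 26 receptors had such opposite signs of at least 0.5 (background 2.71%). Nr4a2 (Nurr1) was too dim to test, at 5.81 to 37.0. Of 10 other immediate early genes tested, 6 were lower and 4 higher and none passed, with a median of −0.012 that was −0.145 without the null male and 0.146 without the null female. Junb, of AP-1, was at −0.62 (SE 0.31), and at −0.183 without the null male and −1.06 without the null female. The zinc finger gene Egr1 was at 0.50 (SE 0.26), and at 0.237 without the null male and 0.757 without the null female.

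**Figure D4:**
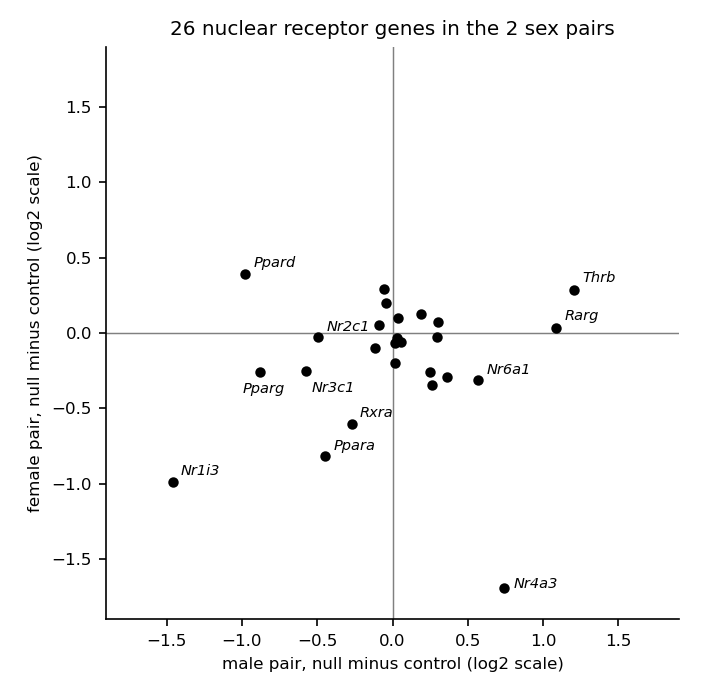
Null minus control difference (log2 scale) of the 26 nuclear receptor genes tested, in the male pair (horizontal) and the female pair (vertical). Each point is 1 gene. Of the 26 genes 7 lie below 0 in both pairs and 5 above 0 in both, with Nr1i3 the farthest to the lower left.

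Across the family, 7 of 26 genes were lower in both sex pairs (26.9%, background 24.2%) and 5 higher in both (19.2%, background 24%). The 7 were Nr1i3, Ppara, Pparg, Rxra, Nr3c1, Nr2c1 and Nr2c2. Nuclear receptors outside the list gave 5 tested genes, 3 lower and 2 higher, none past the threshold. Nr1h4, which encodes the bile acid sensor FXR, was at −0.67 (SE 0.40) with overlapping groups, and at −0.223 without the null male, −0.234 without the control female, −1.12 without the null female and −1.11 without the control male. The clock gene Nr1d2 was at −0.55 (SE 0.26), and at −0.232 without the null male and −0.877 without the null female. Its other probe set gave −0.18, with opposite signs in the sex pairs. Of 12 coregulator genes tested, 10 were lower and 2 higher and none passed. Their median was −0.16, −0.30 for males and 0.04 for females, and 0.0409 without the null male and −0.387 without the null female.

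Most markers of enterocytes and T cells were lower alongside the receptors named above, and none passed the adjusted threshold. At an unadjusted p under 0.05 in limma, 3 enterocyte markers and 1 T cell marker were lower (background 1.75%). The enterocyte marker Apoa4, an apolipoprotein gene, was higher at that level (0.27, SE 0.11, background 1.46%). So was the smooth muscle marker Lmod1 (1.05, SE 0.27), which was bright enough to test only through its null readings. In bulk tissue, fewer cells of a type and less RNA per cell cannot be told apart. Of 9 enterocyte markers 7 were lower, each in both pairs (background 24.2%), with a median of −0.17. That median was −0.288 without the null male, −0.265 without the control male, −0.251 without the control female and −0.11 without the null female. The markers had summed intensities of 24074.5 and 21572 in the nulls and 24881 and 24695.5 in the controls. All 6 T cell markers tested were lower in both pairs (background 24.2%), with a median of −0.43, and 7 of 8 with a probe set were lower. Their sums were 854 and 719.5 in the nulls and 1109 and 1223 in the controls, and no marker of either list was at 0. Of 9 smooth muscle markers tested 8 were higher, with medians of −0.22 for males and 0.66 for females, and a median over both of 0.22 that was 0.577 without the null male and −0.184 without the null female. Their sums were 2562 and 3423 in the null animals and 2676 and 2644 in the controls. The remaining cell type lists also had positive medians, among them fibroblast (0.22), endothelium (0.22), myeloid (0.19) and B cell (0.51). Leaving out 1 animal took the fibroblast median as low as −0.196 and the B cell median as low as −0.497. The part of these cells in the receptor differences was not tested.

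**Figure D5:**
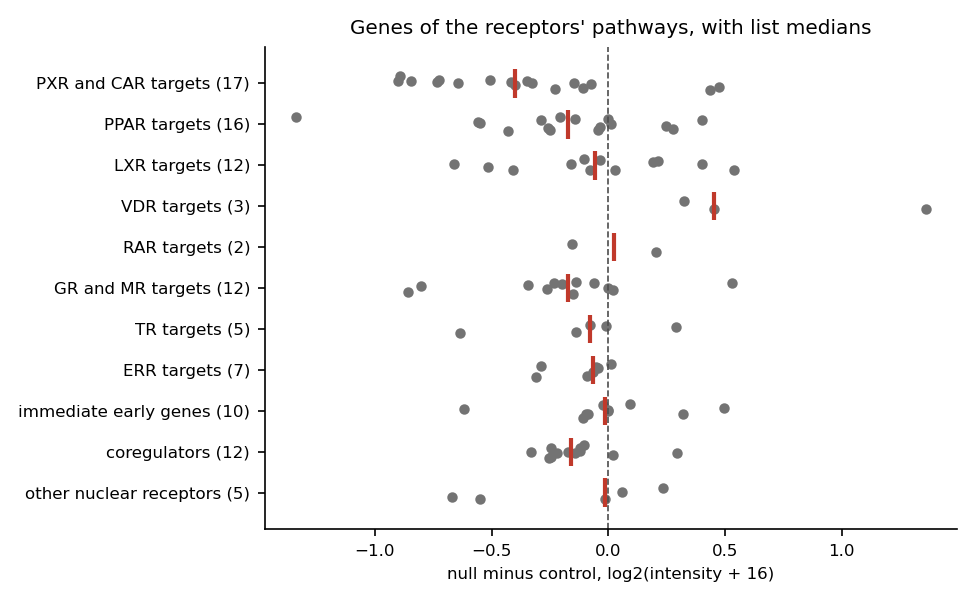
Null minus control difference of the tested genes of each list (grey points, 1 per gene, spread vertically for legibility) with the list median as a red bar, on the scale of log2(intensity + 16); the number tested is in brackets. Marker lists of cell types are not plotted. Among the lists plotted, the PXR and CAR targets have the lowest median (−0.40) and the 3 VDR targets the highest (0.45).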

How the data were processed

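RNA of the 4 intestines was biotin-labelled for Affymetrix arrays, per the labels. The authors deposited 1 linear intensity per probe set and array, with the software, background correction and scaling not stated in labels or headers. The number of arrays limits the precision. Names came from the platform annotation: of 22626 probe sets that were not controls, 20380 had 1 gene, 691 several and 1555 none, and Entrez identifiers of 20351 matched a RefSeq table of GRCm38.p6.

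Intensities were quantile normalized, floored at 0 and taken to log2 after adding 16. Leaving out the dimmest 30% by mean kept 15838. The test was limma (version 3.58.1, R 4.3.3), with lmFit and then eBayes on a trended prior, two-sided. Adjustment was by Benjamini-Hochberg across every probe set tested. The fit was also run on simulated data with independent noise and changes larger than any receptor difference here, so that run does not bear on differences of this size. The animals carry separate numbers, so the residual variance measures the spread between 2 animals a group, with 2 residual degrees of freedom. In each group these animals were a male and a female, and the controls also differed in genotype. The prior, drawn from all probe sets tested, had 4.65 degrees of freedom. The p-values thus rest on the spread of other probe sets as well as on that between the animals.

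The members and lists were chosen with earlier results of these data known. Receptors were described in full where the unadjusted p was under 0.05, where groups differed by at least 0.5 without overlap, or, whatever their values, for Nr1i2, Nr1i3, Ppara, Rxra, Vdr and Nr3c1. Up to 4 genes a list were named by smallest p among those with the same sign in both pairs. Some lists share genes, so their tallies are not independent. Acadm and Pdk4 are on the PPAR and ERR lists. Klf9 is on the glucocorticoid and mineralocorticoid list and the thyroid list. Dusp1 is on the glucocorticoid and mineralocorticoid list and among the immediate early genes. Promoter windows came from RefSeq (GRCm38.p6). Alternatives were median scaling, no normalization, pseudocounts of 1 and 64, no filter, no trend, sex as a block, the mean of a gene's probe sets, and leaving out each animal.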

Additional observations from a re-analysis of the deposited data

Results flagged for a closer look

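Nr4a3, which encodes the immediate early receptor NOR1, differed with opposite signs in the male pair and the female pair. Its difference was 0.74 for males and −1.69 for females, each from 1 null and 1 control animal, and the difference between the pairs was not tested. It was the 1 receptor of 26 with opposite signs of at least 0.5 in both pairs, beside 2.71% of all genes tested. That is near the share of all genes, so it does not mark out the receptors. In the controls sex cannot be told apart from genotype. The other Nr4a3 probe set gave 0.23 and −0.38.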

How the results depend on the processing

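The count of receptor probe sets past the threshold was 0 in limma under every alternative run that kept all animals. Over all probe sets the count was 2, and 1 without an intensity trend, 29 with sex as a block and 0 to 35 when 1 animal was left out. The receptors' median ranged from −0.142 (without the null male) to 0.0844 (without the null female). Nr1i3, Ppara, Pparg, Rxra, Nr3c1, Nr2c1, Rxrb and Thrb kept their direction in every alternative run. Small differences did not: Nr2f2 was 0.0077 with median scaling and 0.0045 with a pseudocount of 64, Nr1i2 was −0.041 without normalization and −0.18 as the mean of its probe sets, and Nr2c2 was 0.029 as such a mean. When 1 animal was left out, these receptors changed sign, with ranges as follows: Esrra −0.11 to 0.067, Esrrb −0.095 to 0.094, Nr1h3 −0.33 to 0.40, Nr1i2 −0.088 to 0.091, Nr2c2 −0.24 to 0.025, Nr2f2 −0.27 to 0.27, Nr2f6 −0.26 to 0.078, Nr4a1 −0.0095 to 0.39, Nr4a3 −1.41 to 0.46, Nr6a1 −0.38 to 0.64, Pgr −0.057 to 0.20, Ppard −0.86 to 0.27, Rara −0.085 to 0.31, Rarg −0.18 to 1.31, Rora −0.26 to 0.047, Rxrg −0.12 to 0.39, Thra −0.025 to 0.18, Vdr −0.19 to 0.15. The labels' animal numbers are not shared between the groups, so the paired fit was by sex, with 1 null and 1 control animal in each pair. With this block no receptor passed the threshold, beside 29 of 15838 probe sets tested (0.183%). Each remaining group of 1 animal was assumed to vary like the other group. The depth of signal over background is unknown for receptors under the gauge.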

Other observations

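Several PXR and CAR target genes read higher in both males than in both females. The genes named here were singled out after their values were seen. Cyp2b10, the classical CAR target, had deposited intensities of 346 (345.5 before rounding) and 620 (620.5) in the males, null before control, and 88.0 and 66.6 in the females. Gstm1, a glutathione transferase gene, read 990 (989.6) and 1824 in males, against 338 and 641 (640.5) in females. Cyp3a11, the main intestinal drug-metabolizing P450 in mice, read 4487 and 4738 in males, against 2249 and 2658 in females. Nr1i3 itself did not follow sex, at 35.4 and 139 in males, against 43.6 and 97.1 in females. The sex difference was not tested, and in the controls it cannot be told apart from genotype.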
